A study of Mus musculus with 14 samples.

Results

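The PAF1 complex is made of Paf1, Leo1, Ctr9, Cdc73, Rtf1 and, in animals, Wdr61, and the mRNA of these 6 genes was followed in 14 libraries of mouse oocytes. The members were taken by gene symbol. They were found in both deposited tables, as 6 of 35389 gene identifiers in the first and 6 of 35341 symbols in the second, and all 6 passed the filter on low values in each. Polyadenylated RNA had been sequenced from 7 groups of 2 libraries each. The first table holds oocytes with a surrounded nucleolus (SN) that overexpressed Rnaseh1, SN oocytes that overexpressed mCherry, and oocytes with a non-surrounded nucleolus (NSN) that overexpressed Rnaseh1 or mCherry. The second table, called the rescue set here after its labels, holds oocytes that overexpressed Rnaseh1 together with Supt6, Rnaseh1 alone or mCherry, with no nucleolar stage in the labels. All groups therefore carry an overexpressed gene, the controls a fluorescent protein, and mouse strain, age, dose and time of overexpression are not given in the sources used here. RNase H1 removes RNA from RNA-DNA hybrids, so that its overexpression is used to lower R-loops, and the series title links R-loops to the histone marks H3K36me3 and H3K4me3 in SN oocytes.

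The PAF1 complex travels with RNA polymerase II during elongation, together with SPT6 (the product of Supt6) and the DSIF factor. It recruits the enzymes that ubiquitinate histone H2B, a mark on which H3K4 and H3K79 methylation depend, and it is linked to H3K36 methylation in transcribed genes. During the NSN to SN transition the chromatin of a full-grown oocyte condenses around the nucleolus and transcription is silenced, so that later mRNA levels depend mainly on storage and decay of existing transcripts.

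In the mouse genome (GRCm38, GENCODE M21) Paf1 lies at chr7:28392951-28399388 on the plus strand and Ctr9 at chr7:111028951-111056377 on the plus strand. Leo1 lies at chr9:75441524-75466432 on the plus strand, and Wdr61 at chr9:54714735-54734519 on the minus strand. Cdc73 spans chr1:143598800-143702893 on the minus strand, and Rtf1 spans chr2:119675068-119735407 on the plus strand. Wdr61 shares 1581 exonic bases, 33.9% of its own, with Dnaja4 on the opposite strand. Cdc73 shares 679 exonic bases, 3.86% of its own, with B3galt2 on the opposite strand. The sources used here do not say that reads were counted by strand, so reads in the shared bases cannot be assigned to either gene with certainty.

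RefSeq promoter sequences of the GRCm38.p6 build were matched for 4 of the 6 genes, namely Paf1, Leo1, Cdc73 and Rtf1. The 250 bases before the RefSeq start are printed for Paf1, Leo1 and Cdc73. In the rescue set Paf1 and Leo1 fell with Rnaseh1 and rose with Rnaseh1 plus Supt6 relative to Rnaseh1. Cdc73 rose and fell in those comparisons. Capitals mark CCAAT and GGGCGG on either strand, so that CCAAT also appears as its complement ATTGG and GGGCGG as CCGCCC. The Paf1 stretch is chr7:28392746-28392995 on the plus strand, the Leo1 stretch is chr9:75441274-75441523 on the plus strand, and the Cdc73 stretch is chr1:143702894-143703143 on the minus strand.
Paf1: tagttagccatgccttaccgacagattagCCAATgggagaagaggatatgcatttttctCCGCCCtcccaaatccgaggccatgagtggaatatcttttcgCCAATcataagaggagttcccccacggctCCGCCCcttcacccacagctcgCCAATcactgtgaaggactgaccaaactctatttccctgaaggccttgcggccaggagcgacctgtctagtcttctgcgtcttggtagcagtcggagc
Leo1: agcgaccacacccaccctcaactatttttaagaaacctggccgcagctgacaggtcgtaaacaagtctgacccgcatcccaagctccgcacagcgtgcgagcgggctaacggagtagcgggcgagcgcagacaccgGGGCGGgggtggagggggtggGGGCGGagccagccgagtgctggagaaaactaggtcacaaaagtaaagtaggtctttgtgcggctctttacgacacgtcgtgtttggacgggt
Cdc73: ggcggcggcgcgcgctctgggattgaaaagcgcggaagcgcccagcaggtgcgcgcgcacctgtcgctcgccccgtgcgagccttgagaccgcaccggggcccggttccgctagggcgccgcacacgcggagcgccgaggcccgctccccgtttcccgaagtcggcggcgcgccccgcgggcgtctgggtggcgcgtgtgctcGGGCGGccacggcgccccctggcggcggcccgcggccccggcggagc
The Paf1 stretch held 3 CCAAT and 2 GGGCGG matches, the Leo1 stretch 0 and 2, and the Cdc73 stretch 0 and 1. The Rtf1 stretch held 0 CCAAT and 5 GGGCGG matches, a pair of them overlapping. Over all 32526 distinct promoter stretches of the same length, 33.8% held at least 1 CCAAT and 33.0% at least 1 GGGCGG. None of the 4 stretches held CACGTG or TATAAA, which 6.04% and 12.3% of all stretches held. The Cdc73 stretch had 47 CpG and a GC content of 80.4%, against 11 CpG and 53.6% in Paf1, 21 CpG and 60% in Leo1, and a median of 6 CpG and 52.4% over all stretches. The order of the transcripts was the other way round, since the mean GC content of the annotated transcripts was 36.7% for Cdc73, 50% for Leo1 and 52.4% for Paf1.

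The deposited values are transcripts per 1000000 transcripts of a library (TPM), which correct for transcript length and keep no record of the number of reads, so the depth behind a value is unknown. The labels do not say that the 2 libraries of a group came from separate animals, pools or cultures, so p-values measure only the spread between libraries. Genes with at least 1 TPM numbered 10036 to 12230 per library. All 11 oocyte markers were at 1 TPM or more in all 14 libraries. Of 11 granulosa and cumulus cell markers, Amh, Amhr2, Foxl2 and Ptx3 were at 0 in every library. The other granulosa markers except Cyp19a1 summed to 0.04 to 3.37 TPM per library, and the sum of all 11, mostly Cyp19a1, was 14.03 to 47.7 TPM. Rnaseh1 was at 1361 and 1083 TPM in SN Rnaseh1 oocytes, against 81.0 and 131 TPM in SN mCherry oocytes, and at 745 and 229 TPM in NSN Rnaseh1 oocytes, against 137 and 108 TPM in NSN mCherry oocytes. In the rescue set Rnaseh1 was at 2270 and 2017 TPM with Rnaseh1 plus Supt6 and at 1243 and 625 TPM with Rnaseh1 alone, against 125 and 114 TPM with mCherry. Supt6 was at 28.2 and 21.0 TPM with Rnaseh1 plus Supt6, against 3.01 and 2.55 TPM with Rnaseh1 alone and 3.28 and 3.14 TPM with mCherry. These levels go with the labelled treatment of every library, while the nucleolar stage was not checked in this way. The libraries of 2 groups were far apart: over all tested genes, the SD of the log2 difference between replicates was 1.28 in NSN Rnaseh1 and 1.05 in SN mCherry, against 0.35 to 0.69 in the other 5 groups.

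Leo1 mRNA was the most abundant of the 6 in 6 of the 7 groups, and Ctr9 or Cdc73 was the least abundant in all 7. Over the 14 libraries, Leo1, which pairs with Paf1 in the complex, ranged between 33.8 and 93.3 TPM with a median of 60.7 TPM. Paf1 ranged between 15.8 and 85.4 TPM with a median of 42.0 TPM. Ctr9, the repeat-rich scaffold on which the other subunits assemble, ranged between 1.65 and 8.60 TPM with a median of 4.14 TPM. The mRNAs of proteins that sit together in the complex were thus not at like levels. Cdc73, the parafibromin tumour suppressor, ranged between 0.82 and 12.3 TPM with a median of 5.06 TPM. Rtf1, which stimulates H2B ubiquitination and is the most loosely held subunit in mammalian cells, ranged between 4.62 and 32.2 TPM with a median of 8.27 TPM. Wdr61, a WD-repeat protein that also belongs to the SKI complex of cytoplasmic mRNA decay, ranged between 8.76 and 84.8 TPM with a median of 17.1 TPM. The exception to the leading place of Leo1 was NSN Rnaseh1, where Wdr61 averaged 62.7 ± 18.6 TPM and Leo1 51.7 ± 20.9 TPM (SD, n = 2), with overlapping libraries. Neighbours in the order also overlapped for Leo1 and Paf1 in SN mCherry, NSN Rnaseh1 and rescue mCherry, and in SN Rnaseh1 for Paf1 with Rtf1 and for Rtf1 with Wdr61. Ctr9 and Cdc73 overlapped in SN mCherry, Cdc73 and Rtf1 in NSN Rnaseh1 and rescue Rnaseh1, and Ctr9 and Rtf1 in rescue mCherry.

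**Figure D1:**
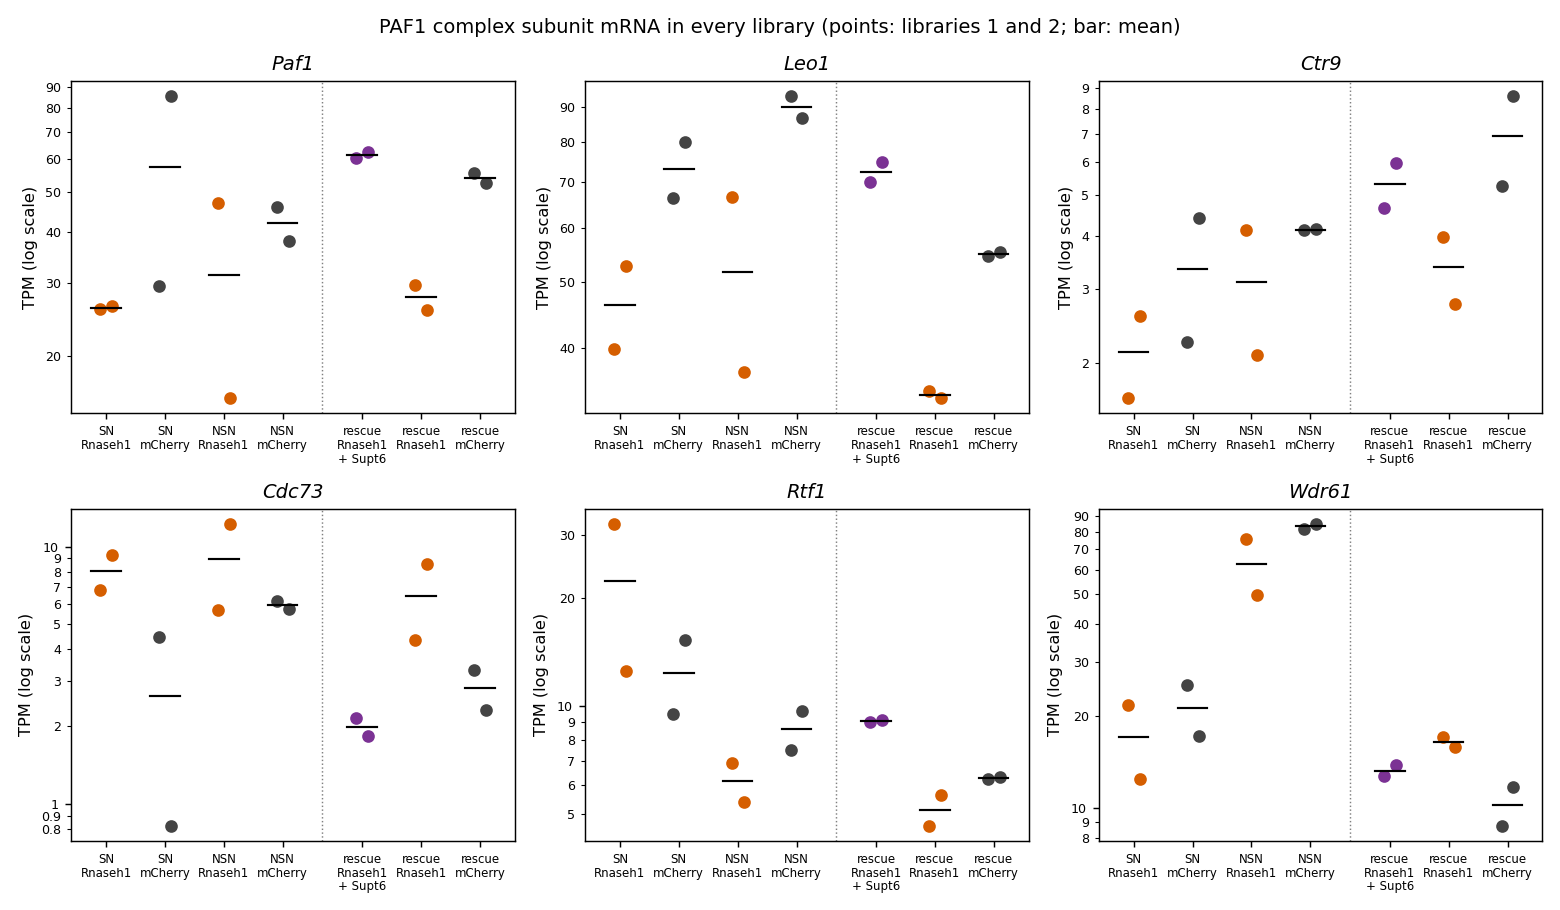
TPM (log scale) of each subunit in every library, with the 4 groups of the NSN and SN set left of the dotted line and the 3 rescue groups right of it; points are libraries and bars are means of 2. Wdr61 stands at 49.5 to 84.8 TPM in the 4 NSN libraries and at 12.5 to 25.3 TPM in the 4 SN libraries.

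Wdr61 was the subunit that differed most between SN and NSN oocytes. With mCherry, Wdr61 was at 25.3 and 17.2 TPM in SN oocytes, against 81.4 and 84.8 TPM in NSN oocytes. With Rnaseh1 it was at 21.8 and 12.5 TPM in SN oocytes, against 75.8 and 49.5 TPM in NSN oocytes. The 4 SN libraries all lay below the 4 NSN libraries, without overlap. The share of all genes split as cleanly was not counted, so this alone says little about Wdr61. On the log2(TPM + 1) scale the difference was −1.94 (SE 0.42, 95% confidence interval −2.93 to −0.96) with mCherry, and 16 of 12736 tested genes had a smaller p. With Rnaseh1 it was −1.83 (SE 0.42, interval −2.82 to −0.85), and 43 genes had a smaller p. Neither passed limma's test after adjustment over all genes, with an adjusted p of 1 for mCherry and of 0.829 for Rnaseh1. Averaged over both treatments, a fit added after seeing the data, the difference was −1.89 (SE 0.30) with an adjusted p of 0.417. NSN Rnaseh1 replicate 2 and SN mCherry replicate 2 stood far from their replicates. Without both, the difference was −2.13 with Rnaseh1 and −1.68 with mCherry. That fit left NSN Rnaseh1 and SN mCherry with 1 library each, which were assumed to vary like the other groups. The Rnaseh1 difference passed in this fit alone among 17 alternatives, and the mCherry difference passed in 0 of 18. TPM gives a share of the RNA sequenced, so a lower Wdr61 level per oocyte and more of other polyadenylated RNA cannot be told apart, and neither can fewer oocytes and less RNA per oocyte.

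The share of Wdr61 in the summed TPM of the 6 subunits followed the same division. This share does not depend on how a library was scaled, but it does depend on the other subunits. It was 8.47% to 18.4% in SN mCherry, against 34.1% to 37.0% in NSN mCherry, and 10.8% to 17.0% in SN Rnaseh1, against 36.8% to 40.6% in NSN Rnaseh1. Dnaja4, a heat shock cochaperone whose exons overlap those of Wdr61, had a log2 difference of −0.41 (SE 0.45, adjusted p = 1) for SN against NSN with mCherry and 0.35 (SE 0.45, adjusted p = 1) with Rnaseh1. Dnaja4 was at 9.69 and 17.2 TPM in SN mCherry, against 15.5 and 19.8 TPM in NSN mCherry, so that these groups overlapped. In the 6 rescue libraries, whose labels give no stage and whose table was normalized apart, the share of Wdr61 lay between 6.55% and 18.1%.

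**Figure D2:**
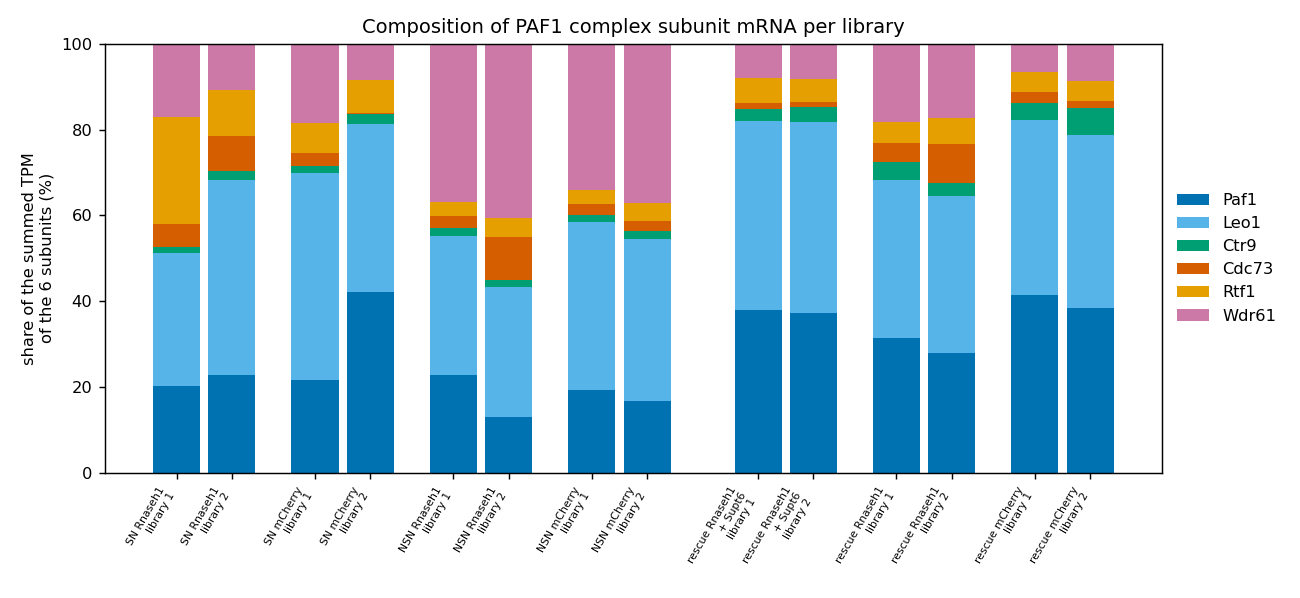
Share (%) of each subunit in the summed TPM of the 6, as a stacked bar per library. Wdr61 takes 34.1% to 40.6% in the 4 NSN libraries and 8.47% to 18.4% in the 4 SN libraries.

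None of the other subunits passed the test between SN and NSN oocytes. Of all 12736 genes tested, 0 passed in each of the 5 comparisons of this set, so that percent called was 0% throughout. The counts at an unadjusted limma p under 0.05 were 328 genes for SN against NSN with mCherry and 584 with Rnaseh1, of which 1 and 2 were subunits. Rtf1 was the other subunit among them. It was at 32.2 and 12.5 TPM in SN Rnaseh1, against 6.94 and 5.40 TPM in NSN Rnaseh1, with a log2 difference of 1.57 (SE 0.53, adjusted p = 0.924). These groups did not overlap, but the share of all genes as separate was not counted. Without SN Rnaseh1 replicate 1 the difference for Rtf1 was 0.92, and without SN Rnaseh1 replicate 2 it was 2.22. With mCherry, Rtf1 was at 9.46 and 15.3 TPM in SN oocytes, against 7.52 and 9.69 TPM in NSN oocytes, and these overlapped. Rtf1 therefore lay on the opposite side of 0 from Wdr61 in both treatments. Leo1 was at 66.2 and 80.1 TPM in SN mCherry, against 93.3 and 86.8 TPM in NSN mCherry, with a log2 difference of −0.30 (SE 0.39, adjusted p = 1). With mCherry, the SN and NSN libraries of Leo1 did not overlap, and neither did those of Cdc73. The intervals of the differences for Paf1, Ctr9 and Cdc73 with mCherry reached from −1.23 to 1.75, from −1.43 to 0.84 and from −2.60 to 0.33, so differences of more than 2-fold in at least 1 direction were within the error for each.

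The effect of Rnaseh1 within a stage was next compared. In SN oocytes Paf1 was at 25.9 and 26.3 TPM with Rnaseh1, against 29.5 and 85.4 TPM with mCherry. Leo1 was at 39.9 and 52.7 TPM in SN Rnaseh1, against 66.2 and 80.1 TPM in SN mCherry. Cdc73 was at 6.79 and 9.25 TPM in SN Rnaseh1, against 4.44 and 0.82 TPM in SN mCherry. The libraries of Paf1 and Leo1 were lower and those of Cdc73 higher with Rnaseh1, without overlap, but none passed the test. How many of all genes were as separate was not counted. The log2 differences were −0.92 (SE 0.64, adjusted p = 0.613) for Paf1, −0.66 (SE 0.39, adjusted p = 0.61) for Leo1 and 1.51 (SE 0.63, adjusted p = 0.61) for Cdc73. The Cdc73 value rested in large part on the library at 0.82 TPM, since without SN mCherry replicate 2 its log2 difference was 0.72. For Paf1 the difference was −1.67 without SN mCherry replicate 1 and −0.17 without SN mCherry replicate 2. With the GC trend of all genes removed, described further on, the differences were −0.40 for Paf1, −0.31 for Leo1 and 0.93 for Cdc73. Of all tested genes 859 had an unadjusted p under 0.05 in this comparison, and Cdc73 was the 1 subunit among them. For all tested genes the median log2 difference was −0.22, and for the 6 subunits it was −0.38. The median of all genes was −0.31 without SN mCherry replicate 1 and −0.08 without SN mCherry replicate 2.

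In NSN oocytes Leo1 was at 66.5 and 36.9 TPM with Rnaseh1, against 93.3 and 86.8 TPM with mCherry. Its libraries did not overlap, at a log2 difference of −0.85 (SE 0.39, adjusted p = 0.755). Wdr61 was at 75.8 and 49.5 TPM in NSN Rnaseh1, against 81.4 and 84.8 TPM in NSN mCherry, with a log2 difference of −0.43 (SE 0.42, adjusted p = 0.762). Rtf1 was at 6.94 and 5.40 TPM in NSN Rnaseh1, against 7.52 and 9.69 TPM in NSN mCherry, with a difference of −0.42 (SE 0.53, adjusted p = 0.799). Leo1 and these 2 genes were lower in each Rnaseh1 library than in each NSN mCherry library, but none passed the test. How many of all genes were as separate was not counted, so this says little about the subunits. Paf1 was at 47.0 and 15.8 TPM in NSN Rnaseh1, against 46.0 and 38.0 TPM in NSN mCherry, so that its 2 Rnaseh1 libraries lay on either side of the controls. Cdc73 was at 5.68 and 12.3 TPM in NSN Rnaseh1, against 6.14 and 5.70 TPM in NSN mCherry, and overlapped likewise. In this comparison 353 genes had an unadjusted p under 0.05, 0 of them subunits, and the median log2 difference was −0.43 for the subunits and −0.29 for all genes. The median of all genes was −0.61 without NSN Rnaseh1 replicate 1 and 0.01 without NSN Rnaseh1 replicate 2. Replicate 2 had less Rnaseh1 than replicate 1, at 229 TPM against 745 TPM. It also had fewer genes with at least 1 TPM, 10036 against 11811. The larger shift was thus in the library with less Rnaseh1, and its cause was not tested.

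Whether the effect of Rnaseh1 differed between the stages was tested as an interaction. Rnaseh1 itself averaged 1222 TPM in SN Rnaseh1 and 487 TPM in NSN Rnaseh1. Its own log2 effect was higher by 1.79 (SE 0.80) in SN oocytes. The interaction thus mixes stage with the level of Rnaseh1, and the part of each was not tested. The difference of the log2 effects, SN minus NSN, was 1.12 (SE 0.75) for Rtf1, 1.06 (SE 0.89) for Cdc73, 0.19 (SE 0.55) for Leo1, 0.11 (SE 0.60) for Wdr61, −0.08 (SE 0.69) for Ctr9 and −0.33 (SE 0.90) for Paf1. The adjusted p was 1 for all 6, and 288 genes of all tested had an unadjusted p under 0.05, 0 of them subunits. The intervals were wide, from −1.28 to 1.51 for Wdr61, for example.

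**Figure D3:**
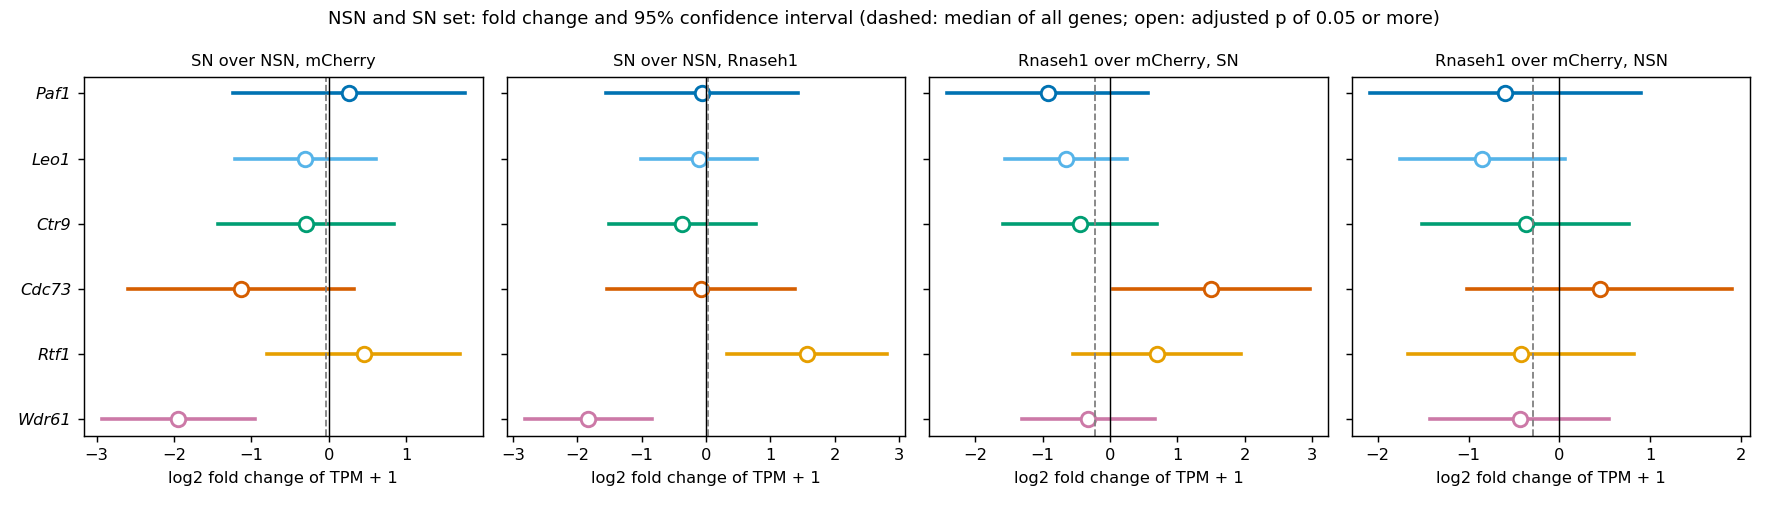
Log2 fold change of TPM + 1 with its 95% confidence interval for each subunit in 4 comparisons of the NSN and SN set; the dashed line is the median of all tested genes, and open points have an adjusted p of 0.05 or more. All points are open; the intervals of Wdr61 lie below 0 in both SN over NSN panels.

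In the rescue set, where replicates lay closer together, Rnaseh1 was compared with mCherry first. Paf1, Leo1 and Ctr9 fell, Cdc73 and Wdr61 rose, and Rtf1 did not pass the test. These were 5 of 6 subunits, 2 up and 3 down, in a comparison in which 66.5% of 12859 genes were called, 20.3% as risen and 46.2% as fallen, so that most genes were called and 5 of 6 says little about the subunits as a group. The median log2 difference was −0.46 for the subunits and −0.52 for all genes. Of the 11 oocyte markers, 1 rose and 8 fell, with a median of −0.96. Genes with at least 1 TPM numbered 11035 and 10892 with Rnaseh1, against 12213 and 12230 with mCherry. The part of these shifts in the result was not tested.

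Paf1 was at 29.7 and 25.9 TPM with Rnaseh1, against 55.6 and 52.6 TPM with mCherry. Its log2 difference was −0.94 (SE 0.12, adjusted p = 0.000397). Leo1 was at 34.7 and 33.8 TPM with Rnaseh1, against 54.6 and 55.2 TPM with mCherry, with a difference of −0.67 (SE 0.11, adjusted p = 0.00119). Each was thus lower by more than the spread between libraries, and relative to the median of all genes the differences were −0.42 for Paf1 and −0.14 for Leo1. With libraries centred on their medians, Leo1 no longer passed, at −0.08 (adjusted p = 0.514), and with quantile normalization it was −0.11 (adjusted p = 0.352). With the GC trend of all genes removed, described further on, neither passed, at 0.14 (adjusted p = 0.332) for Paf1 and 0.06 (adjusted p = 0.622) for Leo1.

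Ctr9 was at 3.99 and 2.76 TPM with Rnaseh1, against 5.25 and 8.60 TPM with mCherry, and its log2 difference was −0.84 (SE 0.30, adjusted p = 0.0401). It passed under 5 of 14 alternatives. Without Rnaseh1 replicate 2 it was −0.63 (adjusted p = 0.126), and without mCherry replicate 2 it was −0.53 (adjusted p = 0.226). Leaving out either library of Rnaseh1 plus Supt6, which is not part of the comparison but of the estimate of the spread, gave an adjusted p of 0.0673 for replicate 1 and 0.0684 for replicate 2. Centred on library medians it was −0.25 (adjusted p = 0.459).

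Cdc73 was at 4.33 and 8.53 TPM with Rnaseh1, against 3.32 and 2.31 TPM with mCherry, with a log2 difference of 0.91 (SE 0.33, adjusted p = 0.044). The higher level rested on the second Rnaseh1 library, without which the difference was 0.50 (adjusted p = 0.179). It passed under 4 of 13 alternatives and also failed without mCherry replicate 1, at 1.11 (adjusted p = 0.0694), without mCherry replicate 2, at 0.72 (adjusted p = 0.196), and without either library of Rnaseh1 plus Supt6, at an adjusted p of 0.0747 each.

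Rtf1 was at 4.62 and 5.62 TPM with Rnaseh1, against 6.26 and 6.34 TPM with mCherry. Its log2 difference of −0.26 (SE 0.20, adjusted p = 0.296, interval −0.74 to 0.22) did not pass. The sign turned with the scaling, to 0.33 with median centring and 0.51 with quantile normalization, neither of which passed.

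Wdr61 was at 17.1 and 15.9 TPM with Rnaseh1, against 8.76 and 11.7 TPM with mCherry. It rose by 0.65 on the log2 scale (SE 0.19, adjusted p = 0.0206), which is 1.17 above the median of all genes. Its share of the summed TPM was 17.2% to 18.1% with Rnaseh1, against 6.55% to 8.58% with mCherry. The share of Wdr61 also depends on Paf1 and Leo1, which fell. They took 38.4% to 41.5% and 40.4% to 40.8% of the sum in rescue mCherry. The rise of Wdr61 passed under 13 of 14 alternatives, with log2 values between 0.46 and 1.38, and was lost without mCherry replicate 1, at 0.46 (adjusted p = 0.114). Dnaja4 was at 15.4 and 13.0 TPM with Rnaseh1, against 16.4 and 14.1 TPM with mCherry, with a log2 difference of −0.10 (SE 0.17, adjusted p = 0.633).

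**Figure D4:**
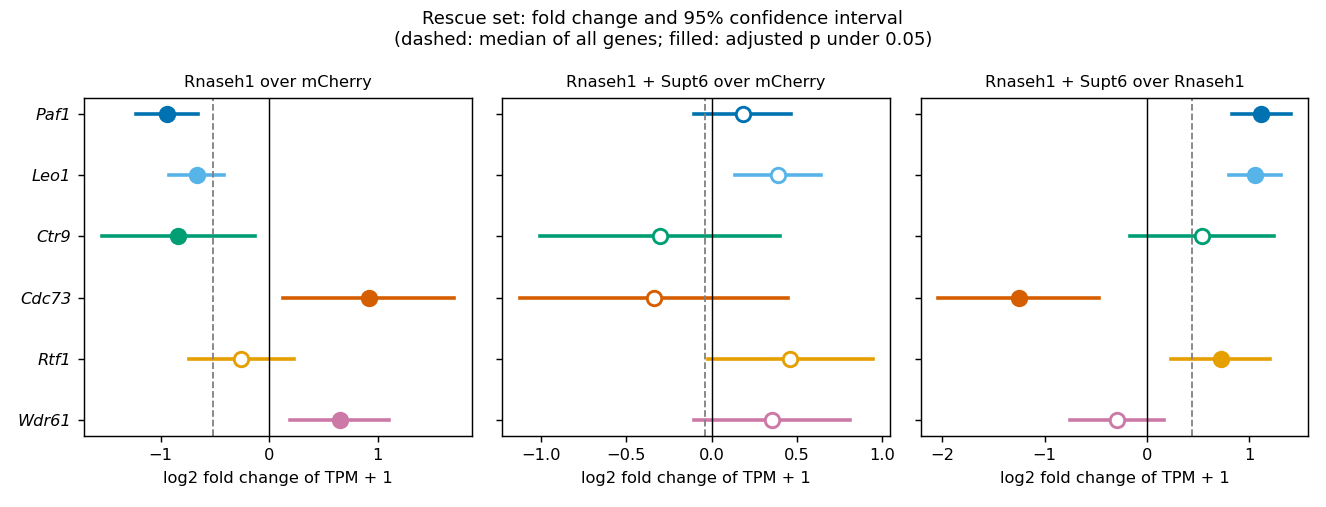
Log2 fold change of TPM + 1 with its 95% confidence interval for each subunit in the 3 comparisons of the rescue set; the dashed line is the median of all tested genes (−0.52, −0.04 and 0.44), and filled points have an adjusted p under 0.05. The filled points of Paf1 and Leo1 lie below 0 for Rnaseh1 over mCherry and above 0 for Rnaseh1 plus Supt6 over Rnaseh1.

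With Rnaseh1 plus Supt6, 3 subunits rose and 1 fell relative to Rnaseh1 alone. Rnaseh1 itself also differed, at a mean of 2144 TPM with Rnaseh1 plus Supt6, against 934 TPM with Rnaseh1. Its log2 difference was 1.28 (SE 0.28, adjusted p = 0.00622 by limma). The groups thus differed in the level of both genes, and the part of each was not tested. This comparison uses the same Rnaseh1 libraries as the one above, so the values of a gene in both are not independent and opposite signs are not a separate finding. Paf1 was at 60.3 and 62.7 TPM with Rnaseh1 plus Supt6, against 29.7 and 25.9 TPM with Rnaseh1, with a log2 difference of 1.12 (SE 0.12, adjusted p = 0.000208). Leo1 was at 69.9 and 74.9 TPM with Rnaseh1 plus Supt6, against 34.7 and 33.8 TPM with Rnaseh1, with a difference of 1.06 (SE 0.11, adjusted p = 0.000149). These libraries lay about 2.21-fold higher for Paf1 and 2.11-fold higher for Leo1 by their mean TPM, and Leo1 passed under all 14 alternatives run. Paf1 passed under 13 of 14 and was lost with the GC trend removed, at 0.24 (adjusted p = 0.133). Rtf1 was at 9.02 and 9.10 TPM with Rnaseh1 plus Supt6, against 4.62 and 5.62 TPM with Rnaseh1, with a difference of 0.72 (SE 0.20, adjusted p = 0.0191). Rtf1 did not pass with median centring, at 0.21 (adjusted p = 0.41), with quantile normalization, at 0.09 (adjusted p = 0.723), or without replicate 1 or replicate 2 of Rnaseh1 plus Supt6, at adjusted p of 0.101 and 0.107.

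Cdc73 was at 2.16 and 1.83 TPM with Rnaseh1 plus Supt6, against 4.33 and 8.53 TPM with Rnaseh1. It fell by 1.25 on the log2 scale (SE 0.33, adjusted p = 0.0149). The call was lost without replicate 1 of Rnaseh1 plus Supt6 (adjusted p = 0.0567) and without replicate 2 (adjusted p = 0.0837). Ctr9 was at 4.66 and 5.97 TPM with Rnaseh1 plus Supt6, against 3.99 and 2.76 TPM with Rnaseh1, with a log2 difference of 0.54 (SE 0.30, adjusted p = 0.16). Wdr61 was at 12.7 and 13.8 TPM with Rnaseh1 plus Supt6, against 17.1 and 15.9 TPM with Rnaseh1, with a difference of −0.29 (SE 0.19, adjusted p = 0.228). Wdr61 passed as lower with median centring, at −0.81 (adjusted p = 0.00718), and with quantile normalization, at −0.89 (adjusted p = 0.00513). Of all genes 58.9% were called in this comparison, 41.6% as risen and 17.4% as fallen, so 4 of 6 subunits was again close to the background. The median log2 difference was 0.63 for the subunits and 0.44 for all genes.

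Relative to mCherry, 0 of 6 subunits passed with Rnaseh1 plus Supt6, while 13.3% of all genes did, 5.71% as risen and 7.60% as fallen. Among the subunits 1 had an unadjusted limma p under 0.05. This was Leo1, at 69.9 and 74.9 TPM with Rnaseh1 plus Supt6, against 54.6 and 55.2 TPM with mCherry, with a log2 difference of 0.39 (SE 0.11, adjusted p = 0.0562). Leo1 passed as higher under 7 of 14 alternatives, among them the fits without Rnaseh1 replicate 1 or without Rnaseh1 replicate 2 (adjusted p = 0.0285 each). The other log2 differences were 0.18 (SE 0.12) for Paf1, −0.30 (SE 0.30) for Ctr9, −0.34 (SE 0.33) for Cdc73, 0.46 (SE 0.20) for Rtf1 and 0.35 (SE 0.19) for Wdr61. Their adjusted p-values lay between 0.195 and 0.586, and the interval for Cdc73 reached from −1.13 to 0.45.

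Transcript GC content moved with these differences over all genes. For Rnaseh1 against mCherry the median log2 difference was 0.50 in the decile of genes with the lowest GC content and −1.63 in the decile with the highest. Paf1, Leo1 and Rtf1 lay near the median of their own decile, at 0.001, 0.09 and −0.02 from it on the log2 scale, Cdc73 at 0.42 and Ctr9 at −0.43. Wdr61 lay farthest, 0.89 above its decile. With the GC trend removed within the fit, the calls of Paf1 and Leo1 ended at the values given above, and so did those of Ctr9, at −0.55 (adjusted p = 0.143), and Cdc73, at 0.14 (adjusted p = 0.737). Wdr61 passed at 0.90 (adjusted p = 0.00522). For Rnaseh1 plus Supt6 against Rnaseh1 the same correction left Leo1 risen at 0.44 (adjusted p = 0.0098) and Wdr61 fallen at −0.55 (adjusted p = 0.0421). Paf1 did not pass, as given above, and neither did Cdc73 at −0.61 (adjusted p = 0.162) or Rtf1 at 0.48 (adjusted p = 0.08). The part of GC content in the results was not tested beyond this correction.

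**Figure D5:**
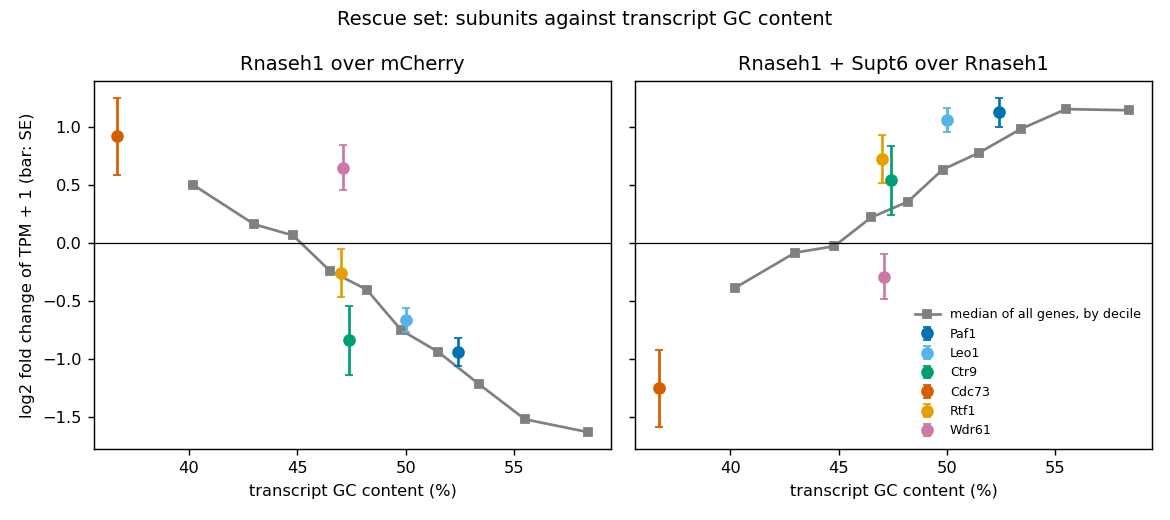
Log2 fold change of TPM + 1 (bars, SE) of the subunits against the GC content (%) of their transcripts in 2 rescue comparisons, with grey squares for the median of all genes in each decile of GC content. For Rnaseh1 over mCherry the grey line runs from 0.50 to −1.63, and Wdr61 lies 0.89 above its decile.

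The partners of the complex gave the following counts in the rescue set. Their lists were chosen for a known link to the complex, with earlier results of these data known. The first list held genes of both H2B ubiquitination and deubiquitination. For Rnaseh1 against mCherry, it had 2 of 7 tested genes risen and 2 fallen, where 20.3% of all genes rose and 46.2% fell. Rnf40, a subunit of the E3 ligase that PAF1 recruits, fell to 2.33 ± 0.08 TPM with Rnaseh1, against 22.4 ± 5.25 TPM with mCherry (SD, n = 2), a log2 difference of −2.80 (adjusted p = 2.93e-05). Ube2a, an E2 enzyme of the same reaction, fell by 0.61 (adjusted p = 0.000927). Usp22, the enzyme of the SAGA deubiquitinase, rose by 1.70 (adjusted p = 0.000372), and Eny2, a part of the same module, by 1.94 (adjusted p = 2.01e-06). In Rnaseh1 plus Supt6 against the same Rnaseh1 libraries, the log2 differences were 2.16 for Rnf40 and 0.47 for Ube2a, which rose, and −1.55 for Usp22 and −1.58 for Eny2, which fell. With median centring Ube2a passed in neither comparison, at −0.03 (adjusted p = 0.835) and −0.05 (adjusted p = 0.725), and the list had 5 genes risen and 1 fallen with Rnaseh1 against mCherry. The added 3 were Rnf20, the other subunit of the E3 ligase, at 0.84 (adjusted p = 0.0032), Ube2b, an E2 enzyme, at 0.55 (adjusted p = 0.000748), and Wac, an adaptor of the ligase, at 0.80 (adjusted p = 0.0182). The share of all genes called with median centring is not given here, so these counts stand without a background. The median of this list, ubiquitination and deubiquitination genes together, was 0.21 for Rnaseh1 against mCherry, beside −0.52 for all genes. For Rnaseh1 plus Supt6 against Rnaseh1 it was −0.28, beside 0.44.

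Of 14 elongation partners, 2 rose and 6 fell with Rnaseh1 against mCherry, with a median log2 difference of −0.69. These counts were near the shares of all genes, 20.3% risen and 46.2% fallen. Ccnt1, the cyclin of the elongation kinase P-TEFb, fell by 3.04 (adjusted p = 1.45e-05), Supt5, the large DSIF subunit, by 2.51 (adjusted p = 8.4e-05) and Ssrp1, of the histone chaperone FACT, by 1.95 (adjusted p = 2.12e-05). Supt4a, the small DSIF subunit, rose by 0.72 (adjusted p = 0.000314). Tcea1, an elongation factor that restarts stalled polymerase, rose by 0.67 (adjusted p = 0.00283) and was at 0.24 (adjusted p = 0.13) with the GC trend removed. With median centring 4 of the 14 rose and 3 fell, a count for which no share of all genes is given. With Rnaseh1 plus Supt6, 7 of the 14, including Supt6 itself, rose relative to Rnaseh1 and 2 fell. Of all genes 41.6% rose and 17.4% fell. The counts were 4 risen and 4 fallen with median centring or quantile normalization, and 4 risen and 2 fallen with the GC trend removed. Of all genes, 3205 rose and 3102 fell with the GC trend removed, and no share is given for the other scalings. Relative to mCherry 1 rose, Supt6, and 1 fell, Supt5, at 12.5 ± 0.51 TPM with Rnaseh1 plus Supt6, against 26.6 ± 3.52 TPM with mCherry (SD, n = 2, adjusted p = 0.0346).

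A further list held genes of histone methyltransferases and of other subunits of their complexes, 9 of 11 of them tested. With Rnaseh1 against mCherry 2 rose and 7 fell, with a median of −1.14, where 20.3% of all genes rose and 46.2% fell. Setd2, which trimethylates H3K36, rose by 0.79 (adjusted p = 0.00411), and Dpy30, a small subunit of the H3K4 methyltransferases, by 2.20 (adjusted p = 8.77e-07). Wdr5, a subunit of the same H3K4 enzymes, fell by 2.77 (adjusted p = 9.52e-06), and so did Rbbp5, of the same core, by 1.66 (adjusted p = 5.16e-05). Cxxc1, which brings SETD1 enzymes to CpG islands, fell by 1.26 (adjusted p = 0.000279) but was higher, at 0.42 (adjusted p = 0.0406), with the GC trend removed. With median centring 3 of the 9 rose and 5 fell, and with the GC trend removed 3 rose and 3 fell. Of all genes, 3439 rose and 3580 fell with the GC trend removed, and no share is given for median centring. With Rnaseh1 plus Supt6, Setd2 was at 74.1 ± 1.78 TPM and with Rnaseh1 at 72.3 ± 15.0 TPM, against 41.1 ± 4.99 TPM with mCherry (SD, n = 2). In Rnaseh1 plus Supt6 against mCherry, Setd2 and Dpy30 rose and Cxxc1, Rbbp5 and Wdr5 fell, where 5.71% of all genes rose and 7.60% fell. Relative to Rnaseh1, 5 of the 9 rose and 1 fell, where 41.6% of all genes rose and 17.4% fell. Of the 3 genes around the other complex of Wdr61, Ttc37, its SKI scaffold, rose by 0.79 (adjusted p = 0.00118) with Rnaseh1 against mCherry. The SKI helicase gene Skiv2l was at 0.30 ± 0.01 TPM with Rnaseh1, against 6.62 ± 0.53 TPM with mCherry, and fell by 2.55 (adjusted p = 9.32e-05), and Hbs1l, a ribosome rescue factor, fell by 1.03 (adjusted p = 9.11e-05). These 3 calls held with median centring, quantile normalization and the GC trend removed. Wdr61 and Ttc37 were thus up and Skiv2l down with Rnaseh1 in the same libraries. Between SN and NSN oocytes 0 of these 3 genes passed, but so did 0 of all 12736 genes, so this count says nothing about the 3. Their median log2 difference was 0.00 with mCherry and 0.15 with Rnaseh1. With Rnaseh1 all 3 lay above 0, and 1 had an unadjusted limma p under 0.05.

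The subunits were also compared by their patterns over the 14 libraries, as the root mean square distance between log2(TPM + 1) values centred within each table. Ctr9 and Leo1 were the closest pair at 0.30, followed by Paf1 and Leo1 at 0.33 and Paf1 and Ctr9 at 0.38. All pairs with Cdc73, Rtf1 or Wdr61 were at 0.70 or more, and Paf1 and Cdc73 were the farthest apart at 1.28. Among 6558 genes, those nearest to Leo1 were Aass at 0.09 and Morf4l2 at 0.10, and those nearest to Paf1 were Spint1 at 0.13 and Ddx24 at 0.13. Ctr9 had Rnf121 at 0.18 and Itm2b at 0.18. Genes as near as these were not found for the other 3 subunits, whose nearest were Zmym1 at 0.28 and Btbd10 at 0.33 for Rtf1, Rif1 and Mex3c at 0.31 each for Cdc73, and Gin1 at 0.32 and Akr1c21 at 0.38 for Wdr61. The median distance of all compared genes was 0.57 from Leo1 and Ctr9, 0.62 from Paf1, 0.74 from Rtf1, 0.95 from Wdr61 and 0.97 from Cdc73. Such a distance depends on the size of a gene's changes as well as on their pattern. Ctr9 and Cdc73 did not reach the mean of 5 TPM in both tables that was asked of the compared genes, and this scale understates changes of low genes. The points share libraries, replicate spread and groups, so these distances describe the data only.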

How the data were processed

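Expression was measured by RNA-seq of polyadenylated RNA from mouse oocytes. The deposited values are TPM per gene and library, computed by the authors; the submitters' processing notes name Trim Galore 0.6.7, STAR 2.7.0d, RSEM 1.3.3 and the mm10 build. The reverse-transcribed cDNA was amplified before library construction, per the labels' protocols, and TPM keeps no depth, so no counting error is given. Of 35389 identifiers in the NSN and SN table, 35319 had a symbol. Column names abbreviate the treatments by a letter, read here as mCherry and Rnaseh1.

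Each table was fitted alone with limma 3.58.1 in R 4.3.3 (eBayes with a trend) on log2(TPM + 1), with 1 mean per group and a shared spread. Genes with at least 1 TPM in at least 2 libraries were tested (12736 and 12859), two-sided, with Benjamini-Hochberg adjustment over all of them and a threshold of 0.05. Fold changes on this scale understate those of low genes. The scripts were tested on simulated data. "Rose" and "fell" mean past the threshold. Alternatives were other pseudocounts, filters and scalings, removal of the GC trend, a replicate block and leaving out libraries. The members and lists were chosen with earlier results of these data known. Named were the 6 subunits throughout, up to 3 genes per list and direction with the smallest p, the 2 genes nearest to each subunit, and Rnaseh1 and Supt6. Dnaja4 was added for its overlap with Wdr61.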

Additional observations from a re-analysis of the deposited data

How the results depend on the processing

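Under the alternatives, 760 values of single subunits were computed, of which 685 kept their sign and side of the threshold. With the sign kept, 31 lost a call and 11 gained one. The other 33 changed sign. Among them were Paf1 and Leo1 for rescue Rnaseh1 against mCherry with the GC trend removed, which also lost their calls. Of the 33, 27 were in the NSN and SN set, where 2 libraries a group and a wide spread limit what can be seen. The cause of these shifts was not tested. In that set the counts of all genes called, 0 in the full fits, became 5 (SN Rnaseh1 against mCherry), 338 (SN against NSN with Rnaseh1, 1 of them a subunit, Wdr61) and 2 (stage difference) without NSN Rnaseh1 replicate 2 and SN mCherry replicate 2 together, and 1 for the stage effect averaged over both treatments. Leaving out single libraries gave 0 to 1152 for NSN Rnaseh1 against mCherry, 0 to 112 for SN against NSN with Rnaseh1 and 0 to 1 for the stage difference. In the rescue set, Rnaseh1 plus Supt6 against mCherry called 927 genes with no filter and 85 to 2726 without single libraries.

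Subunits called for rescue Rnaseh1 against mCherry were 3 with no filter, median centring or quantile normalization, 1 with the GC trend removed and 3 to 5 without single libraries. For Rnaseh1 plus Supt6 against mCherry they were 1 with a pseudocount of 5, a filter at 5 TPM, either scaling or the GC correction, and 0 to 1 without single libraries. Against Rnaseh1 they were 2 with the GC correction and 2 to 4 without single libraries. Changed signs in the rescue set were Rtf1 at 0.33 and 0.51 with median centring and quantile normalization, Paf1 at 0.14 and Leo1 at 0.061 with the GC trend removed (Rnaseh1 against mCherry), and Ctr9 at −0.044 with quantile normalization (Rnaseh1 plus Supt6 against Rnaseh1) and, against mCherry, at −0.61 to 0.0071 without single libraries.

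In the NSN and SN set, none of the values that changed sign passed. The stage difference of Wdr61 was −0.015 with the GC trend removed. Without both far libraries, Paf1 was at 0.17 and Cdc73 at −0.050 (NSN Rnaseh1 against mCherry), Paf1 at −0.49 (SN against NSN, mCherry), Cdc73 at 0.42 (SN against NSN, Rnaseh1), and the stage differences of Leo1 and Wdr61 were −0.090 and −0.45. Without single libraries, Wdr61 ran between −0.70 and 0.057 for SN Rnaseh1 against mCherry, and for NSN Rnaseh1 against mCherry Paf1 between −1.35 and 0.17 and Cdc73 between −0.050 and 0.94. For SN against NSN with mCherry, Paf1 ran between −0.49 and 1.01 and Ctr9 between −0.67 and 0.078. For SN against NSN with Rnaseh1, Paf1 ran between −0.82 and 0.69, Leo1 between −0.53 and 0.31 and Cdc73 between −0.57 and 0.42. The stage difference of the Rnaseh1 effect ran between −1.09 and 0.43 for Paf1, −0.45 and 0.30 for Ctr9, −0.23 and 0.61 for Leo1, and −0.27 and 0.49 for Wdr61.

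A fit with the replicate number as a block called 3 subunits in rescue Rnaseh1 against mCherry, without Ctr9 (adjusted p = 0.0518) and Cdc73 (adjusted p = 0.0608), and moved no other count of subunits. The labels give no reason to pair libraries by number. Same-numbered libraries correlated in their deviations from group means at −0.51 to 0.17 among NSN and SN groups and at 0 to 0.04 among rescue groups.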
